A study of Mus musculus with 2 samples.

Results

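The histone genes described here are the genes whose symbols begin with Hist1h to Hist4h, H2af or H3f3 and that have at least 1 protein-coding transcript. The rule found 78 of the 55536 annotated genes, of 21901 with a protein-coding transcript. Of these, 67 are Hist genes, named for the clusters that encode the replication-dependent histones, and 11 are variant genes of the H2af and H3f3 families. Another 9 entries carry names of the same form without a protein-coding transcript and were not counted as members.

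RNA was measured in the nucleoplasmic fraction of bone marrow-derived macrophages of C57BL/6J mice, which are primary cells grown out from marrow. All cells had received Lipid A, the part of bacterial lipopolysaccharide that the toll-like receptor Tlr4 senses, at 100 ng/ml for 60 min. The 2 libraries are biological replicates of this 1 condition. They come from separate biosamples with a shared donor label, and the starting amount of RNA was 1 µg for replicate 1 and 500 ng for replicate 2. Ribosomal RNA had been depleted, so the libraries did not depend on poly(A) tails. No genotype change is labelled, and age and sex were not collected. Since there is no untreated group and no other fraction, no comparison between groups could be tested, and the spread given below is the SD between these 2 libraries.

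Replication-dependent histones package newly made DNA, and their genes are transcribed mainly in S phase. Their mRNAs carry no introns and end just after a conserved stem-loop in place of a poly(A) tail. SLBP holds this stem-loop, and the end is cut by a complex that contains a small nuclear RNA. Variant histones are made throughout the cell cycle, mostly from spliced and polyadenylated mRNAs, and chaperones place them in chromatin independently of replication. Macrophages grown from marrow can still divide, and stimulation through toll-like receptors is known to slow that division.

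The gene table held 21256531 expected counts in replicate 1 and 15643649 in replicate 2. Levels are given as TPM, a share of all transcripts that is corrected for length and depth. Nuclear protein-coding genes held 254268 and 187954 TPM in all, and the median ratio of replicate 2 to replicate 1 over 8622 of these genes was -0.42 on the log2 scale, so TPM differences between libraries are read against that shift. All 9 macrophage markers reached a TPM of 1 in each library, led by Lyz2 at 1939 in each. Of the 17 markers of T cells, B cells, neutrophils, erythroid cells and fibroblasts, none reached that level in both libraries, and the 4 T cell markers were at 0. In bulk RNA, fewer cells making a transcript and less RNA per cell cannot be told apart.

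Coordinates are those of mm10 with the GENCODE M21 annotation. The stem-loop, which lies in the 3′ untranslated region, was found in the annotated transcripts of 44 of the 67 Hist genes and of 1 of the 11 variants. The search looked, on the sense strand after the coding end, for a stem arm of 6 bases that begins with GG, a loop of 4 bases that begins with TT, and the reverse complement of the arm. Across all 58797 protein-coding transcripts, members included, 128 (0.218%) held such a match. The stem-loop began 21 to 58 bases beyond the coding end, with a median of 31. The sequences below show 1 gene for each of the 7 forms found, 5′ to 3′ in the sense orientation, with the paired stem arms in capitals.
Hist1h1c: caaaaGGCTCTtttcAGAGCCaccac
Hist1h3e: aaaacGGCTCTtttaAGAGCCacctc
Hist2h2ac: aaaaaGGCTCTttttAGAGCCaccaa
Hist1h4m: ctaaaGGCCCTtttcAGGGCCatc
Hist1h4i: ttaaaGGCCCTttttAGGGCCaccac
Hist1h4b: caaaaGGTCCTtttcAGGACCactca
H2afx: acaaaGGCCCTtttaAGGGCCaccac

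The form of Hist1h1c was shared by 26 genes of the H1, H2A, H2B and H3 classes. Hist1h3e stands for 6 genes whose loop ends in A, and Hist2h2ac was alone in its form. The form of Hist1h4m was found in 7 genes, all of the H4 class, and the forms of Hist1h4i and Hist1h4b in 2 H4 genes each. H2afx, which encodes the H2A variant phosphorylated at DNA breaks, was the only variant with a match. A gene without a match only lacks these letters in its annotated transcript: in 17 of the 23 Hist genes without one, the model ends less than 60 bases after the coding end.

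Variant transcripts exceeded those of the Hist genes in both libraries. The median log2(TPM + 1) was 1.55 in replicate 1 and 1.60 in replicate 2 over the 11 variants (1.58 ± 0.04, SD, n = 2). In both libraries the middle variant was H2afv, with 29 and 27 counts. That SD is therefore the spread of 1 gene and not of the variant set. Over the 67 Hist genes the median was 0.70 and 0.51 (0.60 ± 0.13, SD, n = 2). The difference, variant minus Hist, was 0.85 and 1.10 (0.98 ± 0.17, SD, n = 2), larger than the spread of either median between libraries. Among all nuclear protein-coding genes the median was 0.36 and 0.29. Of the variants, 6 of 11 (54.5%) reached a TPM of 1 in each library, and 4 were at 10 or more, against 14.4% of nuclear protein-coding genes. Of the Hist genes, 13 of 67 (19.4%) reached a TPM of 1 and 0 reached 10. The background was 39.2% of 22015 nuclear protein-coding genes at a TPM of at least 1, so at this threshold the share of the Hist genes lay below it and that of the variants above it. When TPM was rescaled so that only nuclear protein-coding genes entered the total, 34 Hist genes (50.7%) and 8 of 11 variants passed, against a background of 49.0%. The lower share of the Hist genes was thus not seen on that scale, and their median lay above that of all protein-coding genes on the TPM scale.

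**Figure D1:**
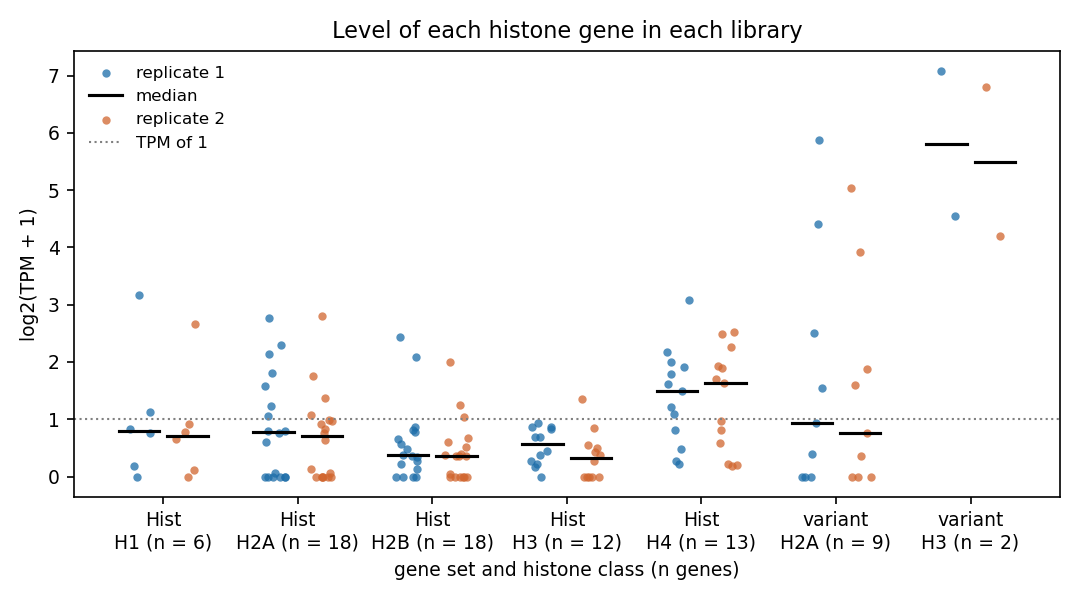
Each point is 1 gene in 1 library, with log2(TPM + 1) on the vertical axis and the class of Hist or variant gene on the horizontal axis. Black bars mark the class medians and the dotted line a TPM of 1. No Hist gene reaches the levels of H3f3b, H2afy, H3f3a and H2afz.

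H3f3b and H3f3a both encode the replication-independent H3 protein. H3f3b (chr11:116021912-116027962, minus strand) was the highest member, at 134.2 and 110.5 TPM in replicates 1 and 2 (5089 and 4302 expected counts), above 98.6% and 98.8% of protein-coding genes. H3f3a (chr1:180800832-180813943, minus strand) stood at 22.3 and 17.3 TPM. The 12 Hist H3 genes, which encode the replication-dependent H3 proteins, summed to 5.73 and 4.1 TPM, and 0 of them reached a TPM of 1 in both libraries. The summed TPM of the H3f3 pair was therefore 27.3 and 31.2 times that of all Hist H3 genes (29.2 ± 2.73, SD, n = 2). In counts, without a correction for length, the ratio was 59.3 and 50.5.

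Among the H2A variants, H2afy was the highest. It encodes macroH2A, an H2A with a large additional globular domain, and spans chr13:56073619-56136361 on the minus strand. Its TPM was 57.8 and 31.9, the widest gap in TPM between libraries among the variants at a TPM of 10 or more. H2afz (chr3:137864487-137866922, plus strand) encodes H2A.Z, a variant found at promoters. It stood at 20.2 and 14.1 TPM, below H3f3a in each library, and the second transcript table described below gave the same order (5.34 and 4.73 TPM for H2afz, 17.4 and 18.2 for H3f3a). H2afj followed at 4.69 and 2.68 TPM, and H2afv, a second gene for H2A.Z, at 1.93 and 2.04. H2afx was at 0.91 and 0.70 TPM and H2afy2, the second macroH2A gene, at 0.31 and 0.29. From H2afz down to H2afy2, no neighbours overlapped between libraries in the gene table. In the second transcript table, H2afx (0.301 and 0.396 TPM) and H2afy2 (0.186 and 0.312) did overlap. H2afb1, H2afb2 and H2afb3, X-linked genes of a short H2A known from the testis, were at 0 in both libraries. Together the 9 H2A variants summed to 85.8 and 51.7 TPM, 3.77 and 3.21 times the 18 Hist H2A genes (3.49 ± 0.393, SD, n = 2). These sums cover all annotated transcript types. Protein-coding transcripts held 37.5% and 39.0% of the TPM of H2afy and 77.9% and 74.6% of that of H2afz. The ratio for protein-coding transcripts alone would therefore be lower. The medians were closer: 0.85 ± 0.12 over the H2A variants and 0.74 ± 0.06 over the Hist H2A genes on the log2(TPM + 1) scale (SD, n = 2 each), and the difference within libraries was 0.16 and 0.07 (0.11 ± 0.06, SD, n = 2). The higher H2A variant sum thus came mainly from H2afy and H2afz.

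Over all classes, the variants summed to 242.3 and 179.5 TPM and the Hist genes to 79.0 and 62.1, a ratio of 3.07 and 2.89 (2.98 ± 0.122, SD, n = 2). H3f3b alone carried more than the 67 Hist genes together. Without H3f3b, the variants summed to 108 and 69.0 TPM, above the Hist sum in both libraries. All these sums include transcripts not annotated as protein-coding. Protein-coding transcripts held 37.5% and 39.0% of the TPM of H2afy, 77.9% and 74.6% of that of H2afz, and 66.9% and 83.3% of that of H3f3a. For protein-coding transcripts alone, the variants without H3f3b summed to less than the Hist genes in both libraries. With H3f3b, the variants stayed above the Hist genes.

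The Hist genes differed by class. H4 had the highest median, 1.49 and 1.64 on the log2(TPM + 1) scale (1.56 ± 0.11, SD, n = 2), and 7 of its 13 genes reached a TPM of 1 in both libraries. The other classes had 1 of 6 (H1, the linker histones), 3 of 18 (H2A), 2 of 18 (H2B) and 0 of 12 (H3). Against 39.2% of nuclear protein-coding genes, the share was 53.8% for H4, 16.7% for H1 and for H2A, 11.1% for H2B and 0% for H3. On the rescaled scale, where 34 Hist genes passed, no counts by class are given. The summed TPM was 27.0 and 25.8 for H4, 22.8 and 16.1 for H2A, 12.7 and 8.51 for H2B, 10.8 and 7.58 for H1, and 5.73 and 4.1 for H3. In CPM, which is scaled to the library total with no length correction, H1 summed highest in replicate 1 at 17.0, and H4 in replicate 2 at 15.5. The median annotated transcript was 1236 bases for H1 and 539 for H4. The order of the H4 and H1 sums thus depended on the length correction in replicate 1 only. The same held for the medians of these 2 classes: in CPM, the H1 median was above that of H4 in replicate 1 only. In the sums of replicate 1, H4 stood at 12.3 CPM, also below H2A at 15.7. In replicate 2, H1 at 14.4 CPM stayed below H4.

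Hist1h1c, which encodes a linker histone, was the highest Hist gene by mean TPM (chr13:23738808-23740367, plus strand), with 8.03 TPM in replicate 1 and 5.32 in replicate 2 (265 and 166 expected counts). Hist1h2bc led the H2B genes at 4.42 and 3.02 TPM, with 102 and 66.0 counts. Hist3h2a, an H2A gene outside the main cluster, was at 3.91 and 2.39 TPM, with 185 and 107 counts. It shares exon bases on the same strand with Trim17, so its counts are uncertain. These genes have the most counts of the 13. Each was lower in TPM in replicate 2, where the median log2 ratio over 8622 nuclear protein-coding genes was also negative, at -0.42.

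The other genes among the 10 highest rested on fewer counts. Hist1h4m was listed at 7.45 and 4.78 TPM from 35.9 and 20.8 counts, and Hist2h2aa2 at 5.84 and 5.98 TPM from 45.9 and 43.4. Hist1h4i was at 2.98 and 3.82 TPM and Hist1h4n at 1.33 and 4.58, both higher in replicate 2. Hist1h4c was at 3.54 and 2.12 TPM, Hist1h4k at 2.47 and 2.74, and Hist1h4h at 2.75 and 2.25. The level of Hist1h4k rested on only 6.74 and 6.52 counts over 312 bases, against 19.8 and 22.0 counts in the second transcript table. Of these 7 genes, 6 encode H4, the histone with the same protein from all of its clustered genes. The leading H3 gene, Hist2h3c1, was at 0.83 and 1.57 TPM, just around the threshold. At the low end, 7 Hist genes (10.4%) were at 0 in both libraries, against 34.3% of nuclear protein-coding genes. Another 16 (23.9%) were at 0 in 1 library only, against 6.4%, and 19 (28.4%) held under 3 counts in both, against 41.4%. A total of 3 counts equals 0.142 CPM in replicate 1 and 0.192 in replicate 2, and differences among these genes were not detectable at this depth.

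**Figure D2:**
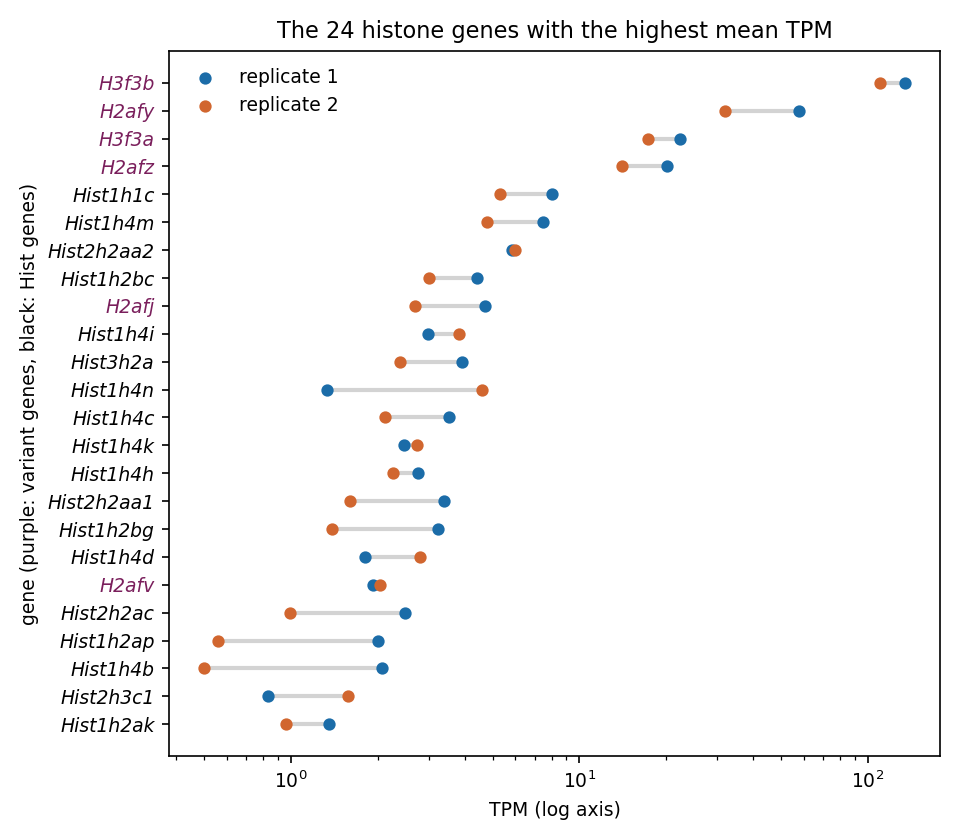
Horizontal axis: TPM on a log scale. The vertical axis lists the 24 members of highest mean TPM, with variants in purple and 1 point for each library. H3f3b sits at 134.2 and 110.5 TPM, and Hist1h1c at 8.03 and 5.32.

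Most Hist genes lie in a few clusters. On chromosome 13, the largest group spans 23531050 to 23764406 with 29 genes. It held 6 of the genes at a TPM of 1 or more and 701 and 462 counts. The group at 21715763 to 21837530 has 18 genes, 3 of them at that level, and the group at 22035164 to 22043676 has 5 genes and 1 at that level. Hist1h2aa and Hist1h2ba, at 23933773 to 23934851 and known from the germ line, were at 0 in both libraries. The 10 genes at 96219865 to 96270132 on chromosome 3 included 2 at that level, and the pair at 58948920 to 58956830 on chromosome 11 included 1. Hist4h4, alone on chromosome 6, was at 0.20 and 0.15 TPM. Over all Hist genes the share at a TPM of 1 or more was 19.4%, against 39.2% of nuclear protein-coding genes. The counts by cluster are a description of where these genes lie, and differences between clusters were not tested.

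Transcript structure also differed between the sets. Every annotated transcript had a single exon in 62 of 67 Hist genes and in 4 of 11 variants. Among the Hist genes, 22 had a model that ends within 100 bases of the stem-loop and 22 had a model that runs more than 100 bases past it. A TPM of 1 in both libraries was reached by 5 of the former and 6 of the latter, and their median log2(TPM + 1) was 0.78 ± 0.18 and 0.60 ± 0.21 (SD, n = 2 each). Within libraries the former was higher by 0.16 and 0.20 (0.18 ± 0.03, SD, n = 2). In CPM, the models that run past the stem-loop held 39.2 and 38.9, and those that end near it 10.6 and 10.02. The models that run on are longer and their counts cover the whole model, so these tables do not show how many reads lay beyond the stem-loop.

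The libraries were compared after TMM scaling, as the log2 ratio of replicate 2 to replicate 1, for genes with a mean count of at least 50. Of 10088 genes, 1.16% differed by more than 2-fold, 0.486% higher in replicate 2 and 0.674% higher in replicate 1. Only 9 members had enough counts, 4 Hist genes and 5 variants, and 1 of them differed by more than 2-fold, too few to set against that share. That gene was Hist1h4d, an H4 gene with 41.0 and 60.0 counts and a log2 ratio of 1.03. The 95% exact counting interval of that ratio, 0.44 to 1.65, extended below 2-fold. The median absolute log2 ratio was 0.25 over the 9 members and 0.18 over all genes.

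The variants had ratios of 0.25 for H3f3b, 0.03 for H3f3a, -0.12 for H2afz, -0.30 for H2afy and -0.34 for H2afj. Hist1h1c was at -0.18, Hist1h2bc at -0.14 and Hist3h2a at -0.30. With a minimum mean count of 10, 30 members could be compared and 3 passed 2-fold, against 4.43% of 14004 genes. The others were Hist2h3c1, at 1.32 (interval 0.69 to 1.99), and Hist1h4n, at 2.14 (interval 0.94 to 3.67). These intervals cover counting error only, and not the division of reads between copies.

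**Figure D3:**
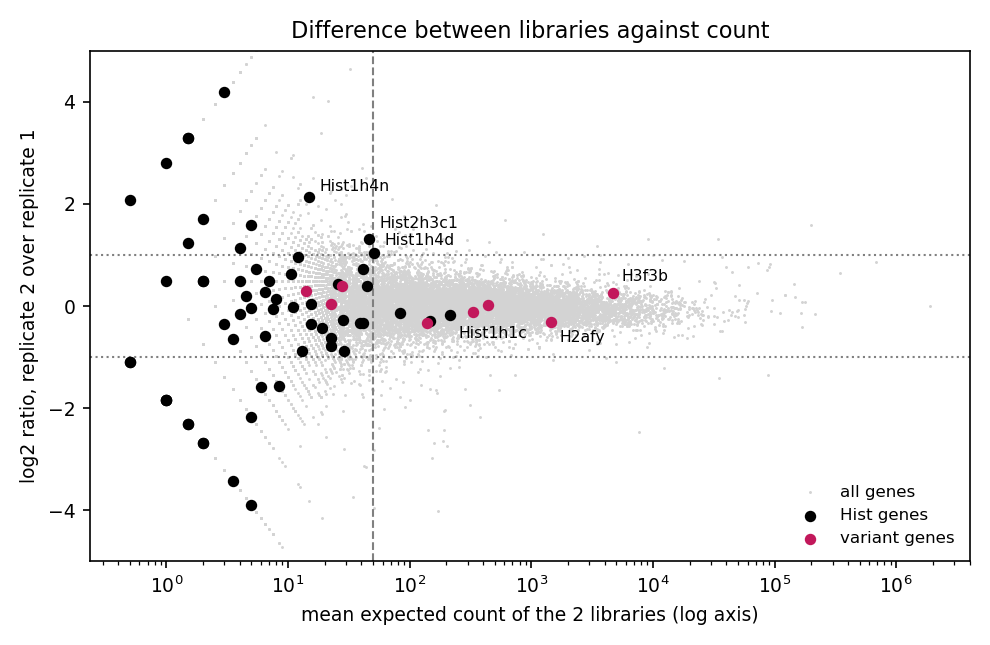
Vertical axis: log2 ratio of replicate 2 to replicate 1 after TMM scaling. Horizontal axis: mean expected count on a log scale, with all genes in grey and members in colour. The dashed line marks a mean count of 50 and the dotted lines 2-fold, and genes beyond a log2 ratio of 5 are not drawn. The 5 variants with a mean count of 50 or more lie between -0.34 and 0.25, and Hist1h4d, Hist2h3c1 and Hist1h4n lie above 2-fold.

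Near-identical copies limited how far single Hist genes could be read. A window of 31 bases is called unique when no other annotated gene has a transcript that contains it. The median share of unique windows was 41.5% in the Hist genes and 84.2% in the variants, and 40 Hist genes and 2 variants had under 50% unique. Exons overlapped another gene on the same strand in 7 Hist genes, and on the opposite strand in 21 Hist genes and 5 variants. Whether the counting used strand was not given in the sources used here, so those genes are uncertain. Among the 19 Hist genes with at least 10 counts in both libraries, 3 had a deposited posterior SD above 25% of the count in at least 1 library.

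Hist2h2aa1 and Hist2h2aa2 are copies of 1 H2A gene on chromosome 3, with 10.3% and 0% of windows unique. Hist2h2aa1 had 31.4 counts with a posterior SD of 14.4 in replicate 1, and 13.8 with an SD of 11.2 in replicate 2. Hist2h2aa2 had 45.9 with an SD of 14.0, and 43.4 with an SD of 11.7. In the second transcript table the pair was split as 47.4 and 28.0 counts in replicate 1, but as 0 and 82.3 in replicate 2. The pair's sum was steadier, at 77.2 and 57.2 counts in the gene table and 75.4 and 82.3 in the second table.

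The H4 genes Hist1h4m and Hist1h4n, with 8.33% and 12.5% of windows unique, showed the same kind of split. Hist1h4m had 35.9 and 20.8 counts, and Hist1h4n 7.27 and 22.9. Their sum was 43.1 and 43.7. The ratio of Hist1h4n between libraries was therefore not seen in the pair. Hist2h3c1 had 0% unique windows and overlaps Gm20634 on the same strand, and its 32.7 and 58.8 counts carried posterior SDs of 10.7 and 9.85.

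**Figure D4:**
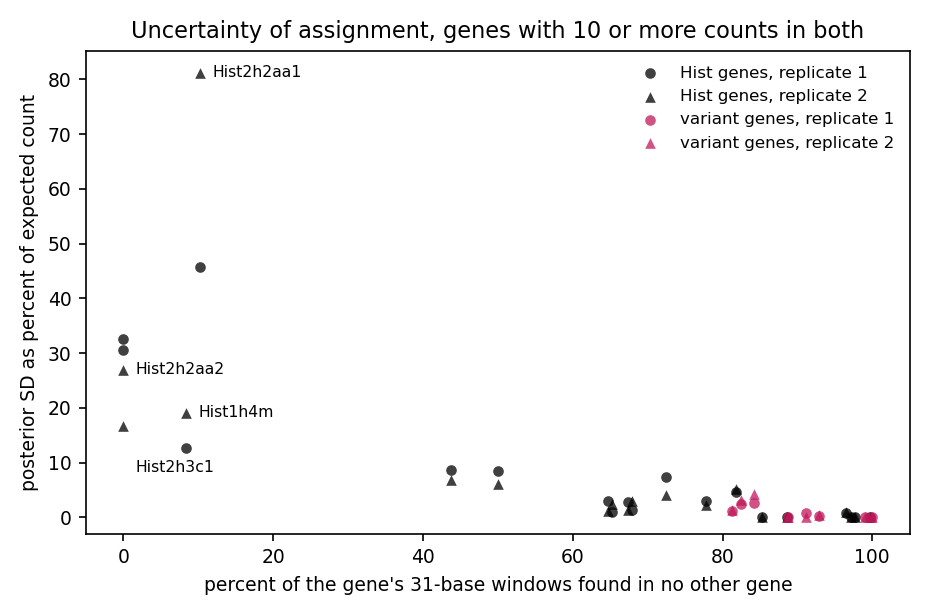
Horizontal axis: percent of windows of 31 bases found in no other gene. Vertical axis: posterior SD as a percent of the count, for members with at least 10 counts in both libraries. The members with few unique windows, such as the Hist2h2aa copies, have the highest values, and the variants sit at the lower right.

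Each library also has a second transcript table from another quantification, with 29853253 and 27003104 estimated counts in all. Its TPM, summed per gene, was set beside the gene table after both were rescaled over protein-coding genes. At a TPM of at least 1 in both tables, 0 of 17 members differed by more than 2-fold. Of 8151 genes, 7.12% were more than 2-fold higher and 0.172% lower in the second table. The median log2 ratio of the 17 members was -0.51 (second over gene table), and that of all genes -0.02. The members thus read lower in the second table by their median, but not each of them did. H3f3a (0.60) and Hist1h4k (0.50) were higher, H2afy (-0.01) was nearly equal, and H2afz (-0.995) lay just inside 2-fold. At a TPM of at least 0.1, 7 of 54 members differed, 5 higher and 2 lower, against 13.0% and 0.352% of 11657 genes. The higher group was Hist2h2be at 2.02, Hist2h2ab at 1.99, Hist4h4 at 1.88, Hist1h1d at 1.86 and Hist1h2bk at 1.02. The lower group was Hist2h3c1 at -1.40 and Hist1h2ag at -1.29. In the gene table, Hist2h2ab (4.0 and 0 counts), Hist1h2bk (1.95 and 0) and Hist1h2ag (0 and 5.66) rested on few counts from 1 library. Hist2h2be, an H2B gene with 97.2% unique windows, had 42 and 16 counts in the gene table but 312 and 94.0 in the second. The source of the additional counts was not tested.

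In H2afy, H2afz, H3f3a and H3f3b, part of the nuclear RNA was assigned to annotated transcripts of types other than protein-coding. H2afj and H2afv were at 100% protein-coding, and the other 5 variants have 1 annotated transcript each. Protein-coding transcripts held 37.5% and 39.0% of the TPM of H2afy, transcripts with a retained intron 38.1% and 39.5%, and processed transcripts the rest. The protein-coding transcript H2afy-202 was the highest, at 17.5 and 8.90 TPM, but not in the second table, where H2afy-204, a processed transcript, was above it in both libraries (7.67 and 5.91 TPM, against 6.61 and 5.14). In H2afz, the retained-intron transcripts held 22.1% and 25.4%. Those of H3f3a held 33.1% and 16.7%, a wider gap between libraries. H3f3b had no retained-intron transcript in the annotation used. Its protein-coding transcripts held 78.7% and 90.3%, with H3f3b-201 at 100.1 and 97.0 TPM.

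The second table gave retained-intron shares of 32.3% and 44.9% for H2afy, 27.9% and 33.5% for H2afz, and 24.5% and 15.5% for H3f3a. H2afy therefore had the highest share in both tables and both libraries among these 3 genes. Reads from unspliced nuclear RNA can be assigned to retained-intron models, so these shares do not count finished transcripts.

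**Figure D5:**
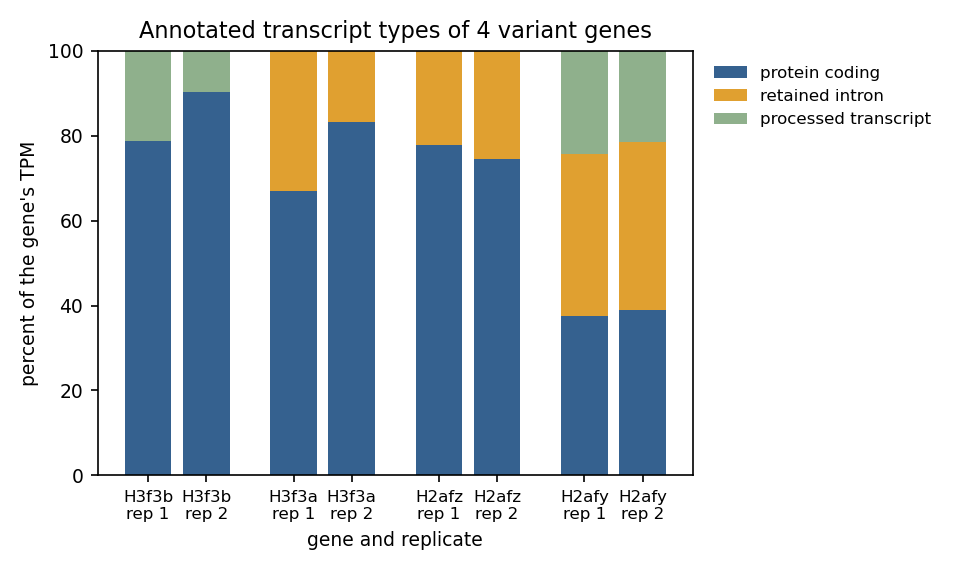
Stacked bars of the percent of each gene's TPM on each annotated transcript type, for H2afy, H2afz, H3f3a and H3f3b in replicates 1 and 2, from the gene-table quantification. The protein-coding part of H2afy, at 37.5% and 39.0%, is below that of the other 3 genes.

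Genes that act on histones were read from lists. Of 16 genes for the transcription and 3′ end processing of replication-dependent histone mRNAs, 12 reached a TPM of 1 in each library, against the 39.2% background, with a median log2(TPM + 1) of 2.29 and 2.00. Slbp, which encodes the stem-loop binding protein, was at 4.80 and 4.04 TPM. Npat, the coactivator of histone gene transcription, was at 1.02 and 0.85. The 4 highest were Srrt (43.2 and 37.0), a cap-complex partner, Eri1 (10.3 and 8.09), an exonuclease that trims the stem-loop end, Sympk (7.59 and 6.63), a scaffold of the cleavage complex, and Lsm10 (5.88 and 5.84), a component of its small RNP. Zfp473 was the lowest at 0.39 and 0.17.

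Of 26 histone chaperone and exchange genes, 24 were at that level, with a median of 3.71 and 3.41. The highest were Atrx (62.5 and 38.7 TPM) and Daxx (39.3 and 26.7), which deposit the H3f3-encoded H3, Npm1 (36.7 and 38.8), a nucleolar histone chaperone, and Srcap (44.6 and 30.6), the motor of the complex that places H2A.Z. Asf1b, an H3-H4 chaperone tied to proliferation, was the lowest at 0.21 and 0.56.

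Of 6 other variant and linker histone genes, Cenpa, the centromeric H3, was at 15.8 and 14.2 TPM and H1f0 at 3.28 and 2.18. H1foo (0.92 and 0.26) and H1fx (0.08 and 0) did not reach a TPM of 1, and H1fnt and Hils1 were at 0. Of 26 S phase genes, 14 were at a TPM of 1 or more in both libraries, against the 39.2% background. Their median log2(TPM + 1) was 1.28 and 1.07. Mki67, a marker of cycling cells, was at 56.6 and 39.1, Pcna, the DNA polymerase clamp, at 42.3 and 30.4, Cdt1, a licensing factor, at 15.2 and 10.7, and Tk1, a nucleotide kinase, at 11.3 and 8.71. Others were below 1 in both libraries, such as Ccna2 (0.81 and 0.79), Rrm2 (0.25 and 0.24) and Ccne1 (0.18 in each). Thus transcripts of some cycling genes, and not of the whole list, reached that level. In the same libraries 13 of 67 Hist genes (19.4%) did so in both, against 39.2% of nuclear protein-coding genes. On the rescaled scale the shares were 50.7% and 49.0%. What share of cells was in S phase was not measured.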

How the data were processed

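The deposited files cover rRNA-depleted total RNA-seq of 1 group with 2 libraries. Per the file headers, they use mouse mm10 with GENCODE M21. The gene table holds expected counts, TPM and a posterior SD of the count (in the unit of counts), as deposited by the authors. A second deposited transcript table holds estimated counts and TPM. For aligner, quantifier, versions and strandedness: not given in the sources used here.

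Members and lists were chosen with earlier results of these data known. Levels are medians of log2(TPM + 1) in each library, with mean and SD over the 2 libraries. With 1 group, no comparison between groups could be tested. Biological replicates share a donor label, so the spread covers these libraries only. The ratio between libraries used expected counts rounded to whole numbers, with TMM factors (edgeR 4.0.16, R 4.3.3) and 0.5 added to each count, or DESeq2 1.42.0 size factors as an alternative. The calculation was tested on simulated data. Other tables were made with Python 3.11.15 and pandas 2.3.3. Transcript sequences of M21 gave windows of 31 bases and the stem-loops. No protein or genome sequence was used. Named genes were every variant, the 10 Hist genes of highest mean TPM, the top gene of each class, members beyond 2-fold, and, of the lists other than cell markers, the 4 highest and the lowest gene, with Slbp and Npat. The lowest gene of 1 list is not reported here. Other genes were named after their values were seen. Intervals and floors cover counting error only.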

Additional observations from a re-analysis of the deposited data

Results flagged for a closer look

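Signal also appeared in 2 of the 9 entries that carry histone names but have no protein-coding transcript and entered no comparison, above the 3 counts that a count of 0 allows. H2afy3, annotated as a processed pseudogene, held 15 expected counts in replicate 1 and 4 in replicate 2, and 16.6 and 14.0 in the second transcript table. H3f3aos, antisense to H3f3a, held 10 and 4 expected counts, and 119 and 75.1 in the second table. It overlaps H3f3a exons on the opposite strand, and without a stated strand setting the reads of the pair cannot be told apart.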

How the results depend on the processing

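The variants stayed above the Hist genes under every alternative run, but the size of the difference moved. It was 1.77 with a pseudocount of 0.1, 2.24 over members at a TPM of at least 1, 0.65 in the second table, 1.60 with TPM rescaled over nuclear protein-coding genes and 2.53 without germ-line members. Of the alternatives chosen after seeing the data, the rescaled second table gave 1.55, and leaving out members that share over 50% of their windows gave 1.63. Each library alone gave 0.85 to 1.10. For the Hist median the same settings gave -0.71, 2.03, 0.30, 1.74 and, for the rescaled second table, 1.47, and CPM gave 0.31. Each library alone gave 0.51 to 0.70. For the variant median they gave 1.06, 4.26, 0.95, 3.34, 3.18 without germ-line members, 3.01 and 2.19, and CPM gave 1.35. Each library alone gave 1.55 to 1.60. The number of Hist genes at a TPM of 1 became 42 at a TPM of 0.1, 9 in the second table and 34 when rescaled. It was 35 in the rescaled second table and 16 to 20 in single libraries, with 20 in replicate 1 alone. Of these settings, a share over all genes is given only for the rescaled gene table (49.0%). The other counts are not read against a background. Members over 2-fold between libraries numbered 3 with a mean count of at least 10, and 26 of 68 with no filter. They numbered 2 in the second table (Hist2h2be and Hist2h2aa2, where Hist1h4d was not called). For the counts with no filter and in the second table, no share over all genes is given. Members over 2-fold between quantifications numbered 7 at a TPM of at least 0.1, 1 by CPM (Hist1h4k), and 1 to 2 in single libraries: H2afz in replicate 2, and Hist1h4m and Hist2h2aa2 in replicate 1. The cause of these moves was not tested. No paired analysis was possible because the labels give 1 group only. Depth limits all genes of low count: 19 of 67 Hist genes (28.4%) held under 3 counts in both libraries, against 41.4% of nuclear protein-coding genes.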
